A study of Homo sapiens with 6 samples.

Results

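The genes described here encode 2 TGF-beta ligands (TGFB1 and TGFB2), 2 latent TGF-beta binding proteins (LTBP1 and LTBP2), the activator thrombospondin-1 (THBS1), the type I and type II receptors (TGFBR1 and TGFBR2) and the intracellular SMAD3 and SMAD7. They were chosen by name, with earlier results of these data known, and with every probe annotated to them. This gave 9 genes of the 19090 named on the array, read by 15 probes. Each of 5 genes had more than 1 probe, and all 15 probes lay above the cutoff for dim probes. The study used H358, a human lung cancer line derived from a bronchioalveolar carcinoma, in a version carrying GFP, whose genotype is labelled control, and a version labelled as expressing YAP(5SA), a mutant of the transcriptional coactivator YAP that Hippo kinases cannot inhibit at its usual serines. Each version was exposed for 60 min to vehicle, IL-1b or TNFa, and 1 array was run per condition, 6 arrays in all. Whether either line is a clone, and which promoter drives the transgene, is not given in the sources used here. The labelled cytokine dose has an implausible unit and is not used.

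TGF-beta is secreted as a latent complex that proteins such as LTBP1 tether to the extracellular matrix, and it signals only after integrins, proteases or thrombospondin-1 release it. The free ligand brings the type II receptor together with the type I receptor, which phosphorylates SMAD2 and SMAD3. These join SMAD4 in the nucleus and switch on targets that include the inhibitor SMAD7, so the pathway restrains itself. In lung epithelium TGF-beta is known for growth arrest and for epithelial-mesenchymal transition, and SMADs and YAP are known to share target genes.

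Levels are log2(intensity + 16), a scale that understates the change of dim genes, and differences are on the same scale. No condition was repeated. The line difference was therefore the mean over 3 pairs of arrays that had the same treatment, and each cytokine response the mean over 2 pairs, fitted together with limma over all genes. Each SE and p-value rests mostly on a prior from all genes (34.3 degrees of freedom) and less on how unequal a gene's own pairs were (2). Neither measures a spread between replicate cultures. The pathway gene PMEPA1, with pairs from -2.68 to -2.53, had an SE of 0.20, and MMP2, with pairs from -1.04 to 0.61, one of 0.24. For the line difference, the named genes all shared 1 SE in some fits. It was 0.32 without an array of the IL-1b pair, 0.24 without one of the TNFa pair and 0.22 with the dimmest 60% left out. The p-values of those fits do not reflect how unequal a gene's own pairs were. The labels do not say whether the arrays came from separate cultures, and their small number limits the precision. In such bulk RNA, fewer cells with a transcript and less of it per cell cannot be told apart. Median intensities ran from 335.2 to 398.1. The median of all genes differed by 0.17 between the lines in the TNFa pair, against -0.10 in the vehicle pair and -0.07 in the IL-1b pair. The probe for YAP1 read lower, not higher, in the YAP(5SA)-labelled line, with a mean difference of -0.73 ± 0.21 (SE, adjusted p = 0.0120), a call lost in 4 of the 6 fits with an array dropped. Which stretch of YAP1 it reads is unknown, and a probe blind to the transgene cannot check the label. Each marker sum that follows covers every marker of its list with a probe, also those below the dim cutoff. Of 7 epithelial marker genes 5 lay above that cutoff, and KRT19 and CLDN4 lay below it. The summed intensity of all 7 was 143920 to 189590 in GFP cells and 254760 to 309030 in the other line. The keratins KRT18 and KRT7 make up most of that sum, and within the list CDH1 rose 3.13-fold (adjusted p = 1.12e-07) while EPCAM fell 2.05-fold (adjusted p = 0.000447). Of 7 fibroblast markers 2 lay above the cutoff, with sums over all 7 of 1826 to 2369 in GFP cells and 1339 to 1844 in the other line. Of 5 leukocyte markers with a probe 3 did, with sums of 3513 to 4430 and 1500 to 2202, a list in which CD14 fell 3.06-fold (adjusted p = 1.16e-07). Of 5 endothelial markers 3 did, with sums of 852 to 1254 and 1053 to 1226. Of 4 alveolar and club cell markers 1 did, with sums of 526 to 728 and 498 to 696, while NKX2-1, SFTPB and SFTPC did not. The part of these marker levels in the results was not tested.

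Between the lines, the LTBP family moved both ways, the activator THBS1 rose and a receptor gene fell. Higher in the YAP(5SA)-labelled line were LTBP2 and THBS1, while LTBP1 and TGFBR1 fell. The other 5 genes did not pass the test. Thus 2 of 9 genes were called higher, against a background of 7.90% of all 12350 genes tested, and 2 of 9 lower, against 8.91% (limma, adjusted p under 0.05). By probe the count was 2 of 15 higher, against 7.56% of all 15536 probes, and 2 of 15 lower, against 9.02%. As the genes were chosen with earlier results of these data known, these shares describe the set and do not test it. The median difference of the 9 genes was 0.04, beside -0.01 for all genes. That median is the value of the brightest SMAD3 probe, while the other 2 SMAD3 probes were at -0.40 and -0.55. Centring each array on its median gave 4 genes called higher and 2 lower, as TGFB1 and SMAD7 joined the calls. Over all genes that scaling turned 976 higher and 1101 lower calls into 1430 and 964. The 3 arrays of one line lay wholly above those of the other for LTBP2, THBS1 and SMAD7 (background 13.8%), and wholly below for LTBP1, TGFBR1 and TGFBR2 (background 14.4%).

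The 250 bases upstream of the start of the 4 called genes are shown because these genes carry the line difference. The sequences are RefSeq's on GRCh38.p14, read 5′ to 3′ on the gene's strand, and lie at chr15:39580829-39581078 (THBS1, plus strand), chr14:74612238-74612487 (LTBP2, minus strand), chr2:32946703-32946952 (LTBP1, plus strand, the first of 3 starts in the table) and chr9:99104863-99105112 (TGFBR1, plus strand, the first of 8). Capitals mark 2 motifs searched on both strands, GGAATG, the core bound by the YAP partners of the TEAD family, and CAGAC, a SMAD-binding box.
THBS1: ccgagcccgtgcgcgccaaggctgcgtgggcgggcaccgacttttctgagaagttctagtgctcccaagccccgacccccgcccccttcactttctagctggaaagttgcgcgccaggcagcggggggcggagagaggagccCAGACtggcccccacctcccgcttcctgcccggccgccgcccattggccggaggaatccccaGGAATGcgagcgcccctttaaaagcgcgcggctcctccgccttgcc
LTBP2: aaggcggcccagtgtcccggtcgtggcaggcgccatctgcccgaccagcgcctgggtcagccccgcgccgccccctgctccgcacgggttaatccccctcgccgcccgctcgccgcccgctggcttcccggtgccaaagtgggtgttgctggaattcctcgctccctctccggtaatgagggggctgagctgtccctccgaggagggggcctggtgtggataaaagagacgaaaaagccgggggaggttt
LTBP1: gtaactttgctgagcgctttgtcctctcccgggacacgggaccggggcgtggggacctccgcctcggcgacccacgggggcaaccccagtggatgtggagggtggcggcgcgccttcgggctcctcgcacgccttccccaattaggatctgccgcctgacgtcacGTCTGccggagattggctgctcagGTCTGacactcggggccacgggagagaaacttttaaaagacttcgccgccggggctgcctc
TGFBR1: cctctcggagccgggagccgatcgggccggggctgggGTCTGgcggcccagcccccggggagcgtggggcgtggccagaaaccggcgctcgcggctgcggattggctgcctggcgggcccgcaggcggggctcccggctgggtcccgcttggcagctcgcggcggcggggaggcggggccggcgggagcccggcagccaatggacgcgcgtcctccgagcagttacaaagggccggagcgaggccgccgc

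The THBS1 window held both motifs, with GGAATG starting 46 bases and CAGAC 108 bases before the start. The LTBP2 window held neither. LTBP1 held CAGAC on the opposite strand at 85 and again at 61 bases, TGFBR1 held it on that strand at 213 bases, and neither held GGAATG. No match overlapped another. Among all 35116 windows of this length 11.9% held GGAATG, 38% held CAGAC and 4.71% held both, so these matches are common letters and describe the windows only.

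**Figure D1:**
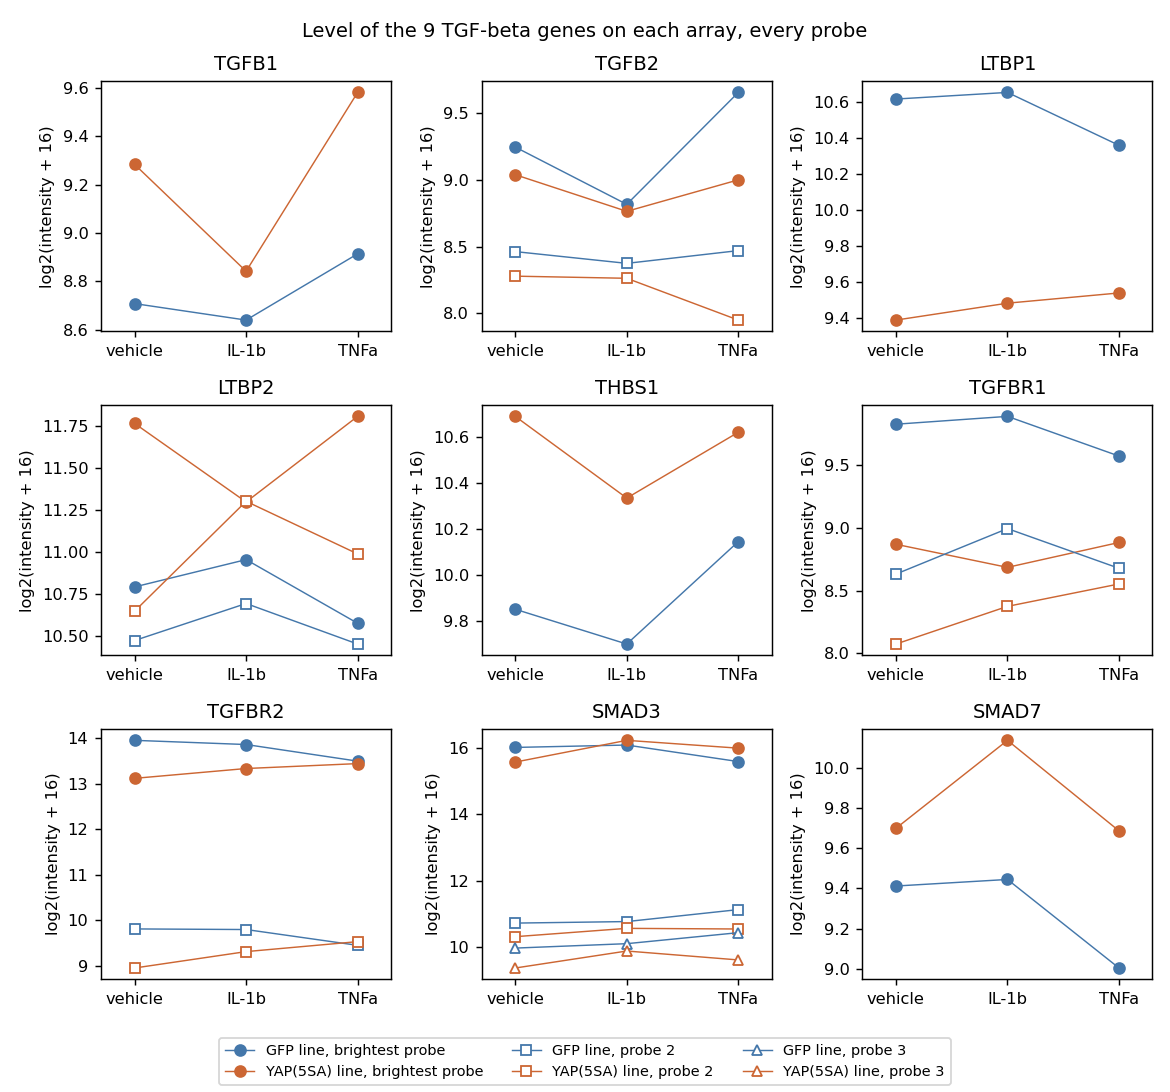
Level of each of the 9 genes on the 6 arrays, as log2(intensity + 16), with treatment on the x axis, the GFP line in blue, the YAP(5SA)-labelled line in orange, and a marker shape per probe (filled for the brightest). The lines are separated at every treatment for LTBP1 and THBS1, whereas the brightest SMAD3 probe crosses between treatments. Scales differ between panels.

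Of the ligands, TGFB1 read higher and TGFB2 lower on average in the YAP(5SA)-labelled line, but neither passed the test. TGFB1, the ligand that most cells make, read 8.71, 8.64 and 8.91 in GFP cells (vehicle, IL-1b and TNFa, as in every triplet that follows), and 9.28, 8.84 and 9.58 in the other line. The lines overlapped, since the IL-1b array of the YAP(5SA)-labelled line lay below the TNFa array of the GFP line. The mean difference was 0.48 ± 0.21 (SE, adjusted p = 0.116), with a 95% interval of 0.06 to 0.90, and was above 0 in all 3 pairs.

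TGFB2, the isoform that needs the co-receptor betaglycan for strong receptor binding, had 2 probes. The brighter read 9.25, 8.82 and 9.66 in GFP cells and 9.04, 8.76 and 9.0 in the YAP(5SA)-labelled line, treatments ordered as before. The dimmer read 8.46, 8.37 and 8.47 against 8.28, 8.26 and 7.95. Both probes were lower in all 3 pairs, and their lines overlapped only for the brighter one. The mean difference was -0.31 ± 0.21 (SE, adjusted p = 0.380, interval -0.73 to 0.12) for the brighter probe and -0.27 for the dimmer. The widest gap of both was in the TNFa pair, at -0.66 and -0.52.

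The LTBP family held both the largest fall and the largest rise among the 9 genes. LTBP1, which binds latent TGF-beta and fixes it to fibrillin-rich matrix, read 10.62, 10.66 and 10.36 in GFP cells and 9.39, 9.48 and 9.54 in the YAP(5SA)-labelled line. The groups did not overlap, and no array lay between 9.54 and 10.36. The fall was -1.08 ± 0.21 (SE, adjusted p = 0.000111), a 2.11-fold lower level, with pair values of -1.23, -1.17 and -0.82 under vehicle, IL-1b and TNFa. LTBP1 stayed past the threshold in all 6 fits that left out an array.

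LTBP2, the family member that does not bind latent TGF-beta and is part of elastic microfibrils, moved the other way. Its brighter probe read 10.79, 10.96 and 10.58 in GFP cells and 11.77, 11.30 and 11.81 in the YAP(5SA)-labelled line. The groups did not overlap, with the IL-1b pair closest at 0.34, beside 0.98 under vehicle and 1.24 under TNFa. The rise was 0.85 ± 0.21 (SE, adjusted p = 0.00302), or 1.80-fold, and was called in all 6 fits that left out an array. The second probe read 10.47, 10.69 and 10.45 against 10.65, 11.30 and 10.99. It was higher in all 3 pairs, but its lines overlapped and its mean of 0.44 did not pass when every probe was tested (adjusted p = 0.151). The pair that was closest on the brighter probe was the widest on this one, at 0.61.

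THBS1, a matrix glycoprotein that can release TGF-beta from its latent complex and is itself a TGF-beta and YAP target, read 9.85, 9.70 and 10.14 in GFP cells and 10.69, 10.33 and 10.62 in the YAP(5SA)-labelled line. The groups did not overlap, and the pair values were 0.84, 0.63 and 0.48. The rise was 0.65 ± 0.20 (SE, adjusted p = 0.0225), or 1.57-fold. The call was lost without either array of the vehicle pair (0.55, adjusted p = 0.110) and of the IL-1b pair (0.66, adjusted p = 0.294). In the latter fits the THBS1 difference did not shrink, but its SE was 0.32. The call was also lost with no cutoff for dim probes (adjusted p = 0.0663) and without the treatment term (adjusted p = 0.0609).

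Both receptor genes read lower in the YAP(5SA)-labelled line, and TGFBR1 passed the test. TGFBR1, the kinase that phosphorylates SMAD2 and SMAD3, read 9.83, 9.89 and 9.57 in GFP cells on its brighter probe and 8.87, 8.69 and 8.89 in the other line. These groups did not overlap, and the fall was -0.95 ± 0.21 (SE, adjusted p = 0.000637), a 1.93-fold lower level. The second probe read 8.63, 9.0 and 8.68 against 8.08, 8.38 and 8.55. Its groups did not overlap either, but its mean of -0.43 did not pass (adjusted p = 0.161). The pair values of that probe were -0.56, -0.62 and -0.13. The call on the brighter probe was lost without either array of the IL-1b pair (-0.82, adjusted p = 0.107), where the SE was 0.32.

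TGFBR2, the receptor that binds the ligand first and activates TGFBR1, differed least between the lines in the TNFa pair. Its brighter probe read 13.95, 13.86 and 13.50 in GFP cells and 13.12, 13.33 and 13.44 in the YAP(5SA)-labelled line. The second probe read 9.81, 9.80 and 9.45 against 8.95, 9.31 and 9.53. The pair values were -0.84, -0.53 and -0.05 on the first and -0.86, -0.49 and 0.08 on the second. Both probes thus showed a gap that was widest under vehicle. These values are not adjusted for the median of all genes, which was -0.10, -0.07 and 0.17 in the same pairs. The mean of the brighter probe was -0.47 ± 0.21 (SE, adjusted p = 0.135, interval -0.90 to -0.05). Without either array of the TNFa pair it was -0.68 and passed (adjusted p = 0.0307).

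**Figure D2:**
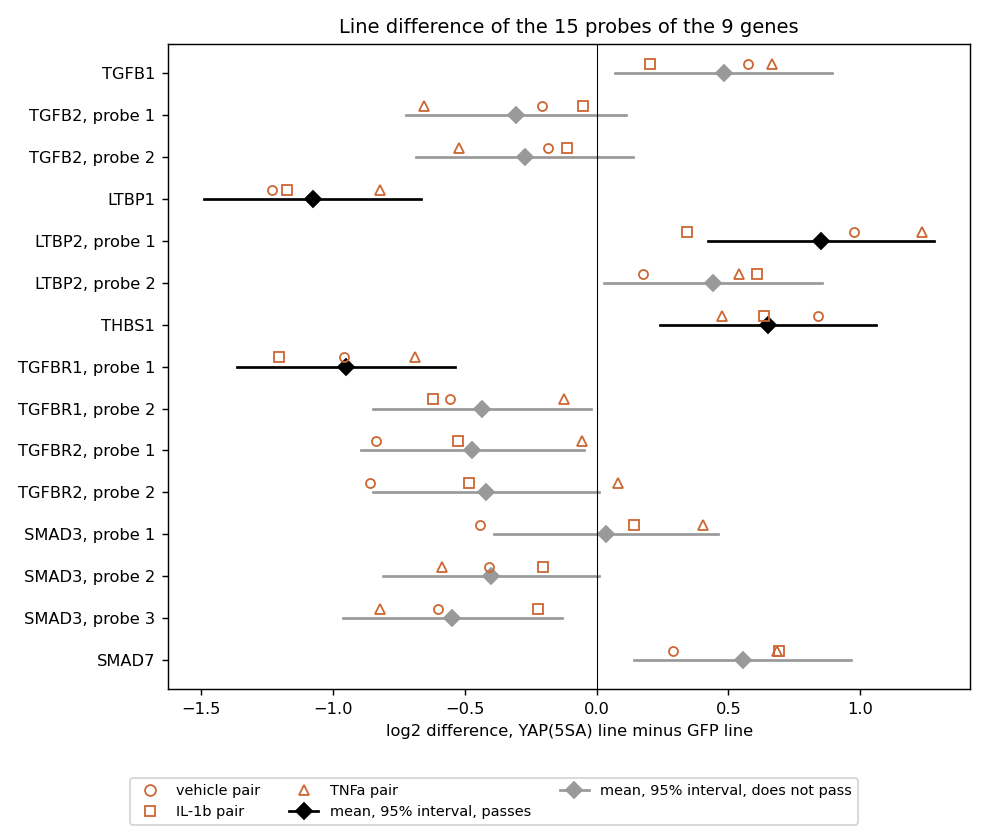
Difference between the lines on the log2 scale for each of the 15 probes, as single pairs (open orange symbols), their mean (diamonds) and its 95% interval from limma fitted on every probe (bars). LTBP1, the brightest probes of LTBP2 and TGFBR1, and THBS1 are drawn in black because they passed the test. The 3 SMAD3 probes are not on the same side of 0.

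Among the SMADs, SMAD7 read higher without passing the test, and the probes for SMAD3 disagreed. SMAD7, which blocks the activated receptor and recruits ubiquitin ligases to it, read 9.41, 9.45 and 9.0 in GFP cells and 9.70, 10.14 and 9.69 in the YAP(5SA)-labelled line. The groups did not overlap, and the pair values were 0.29, 0.69 and 0.68. The mean was 0.55 ± 0.21 (SE, 1.47-fold) with an adjusted p of 0.0598, just outside the threshold. It passed without either array of the vehicle pair (0.69, adjusted p = 0.0402), with quantile normalization (0.63, adjusted p = 0.0189) and with median centring (0.65, adjusted p = 0.0164).

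SMAD3, the receptor-activated SMAD that binds DNA directly, had 3 probes. The brightest, which stood for the gene, read 16.02, 16.09 and 15.59 in GFP cells and 15.58, 16.23 and 15.997 in the other line. Its pair values of -0.44, 0.14 and 0.41 changed sign, and its mean was 0.04 ± 0.21 (SE, adjusted p = 0.950, interval -0.39 to 0.46). The second probe read 10.72, 10.76 and 11.13 against 10.31, 10.56 and 10.54, and the third read 9.96, 10.10 and 10.43 against 9.36, 9.88 and 9.61. Both were lower in all 3 pairs without overlap, with means of -0.40 (adjusted p = 0.200) and -0.55 (adjusted p = 0.0632) when every probe was tested. Which transcripts each probe reads is not known here, so the direction of SMAD3 between the lines is not settled by these arrays.

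Neither cytokine moved any of the 9 genes past the test within the hour. With IL-1b 0 of 9 were called, against 2.36% of all genes, and with TNFa 0 of 9, against 0.769% (limma). At an unadjusted p under 0.05 the count was also 0 of 9 for each cytokine. The mean responses ran from -0.35 (TGFB2) to 0.36 (SMAD3) with IL-1b and from -0.21 (SMAD7) to 0.25 (TGFB1) with TNFa. The 95% intervals of all 9 lay within -0.87 to 0.89 for IL-1b and within -0.72 to 0.76 for TNFa, and changes smaller than these bounds were not all detectable with so few arrays. The median response of the 9 genes was -0.06 with IL-1b, beside 0.03 for all genes, and -0.05 with TNFa, beside -0.05.

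Both ligands read below vehicle with IL-1b in both lines. For TGFB1 the IL-1b values were -0.07 (GFP) and -0.44 (YAP(5SA)), and the TNFa values 0.21 and 0.30. For the brighter TGFB2 probe they were -0.43 and -0.27, then 0.41 and -0.04, and for the dimmer one -0.09 and -0.02, then 0.01 and -0.33. SMAD7, known in other cells as a gene that NF-kB and SMADs can both induce, gave IL-1b values of 0.03 and 0.44 and TNFa values of -0.41 and -0.01. These are single pairs of arrays that share a vehicle array per line, and none of them has a test of its own.

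**Figure D3:**
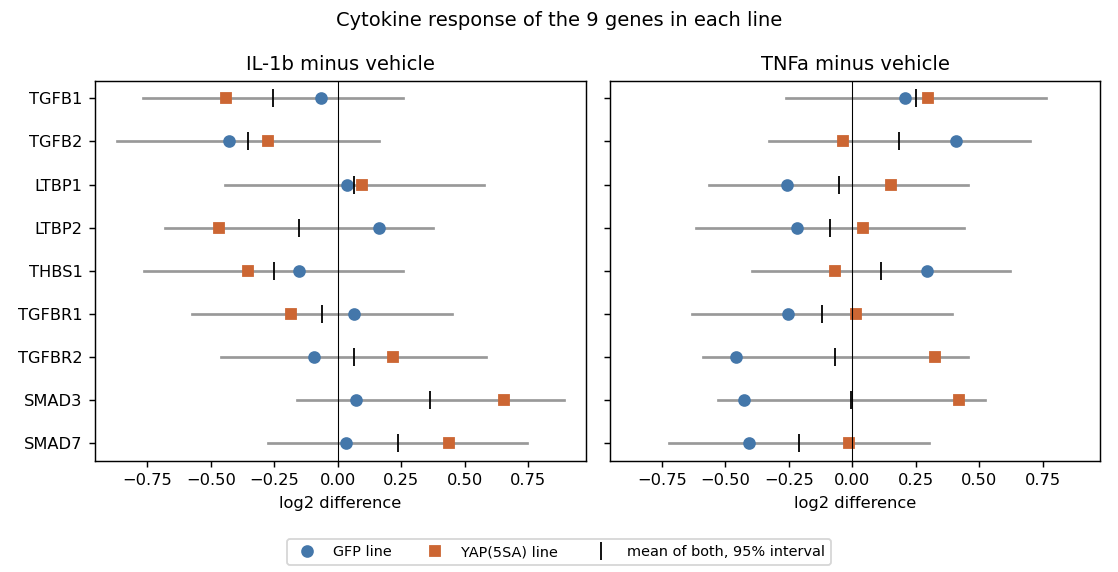
Response of the 9 genes to IL-1b (left) and TNFa (right) on the log2 scale, by line (blue circles for GFP, orange squares for YAP(5SA)), with the mean of both lines (black tick) and its 95% interval (grey bar). All intervals include 0.

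The difference in response between the lines had no test, because each rests on 4 single arrays. Relative to the median of all genes, which was 0.01 for IL-1b and 0.26 for TNFa, the difference was at least 0.5 in size for 2 of 9 genes with IL-1b and 4 of 9 with TNFa. The same held for 24.3% and 41.2% of all genes. Responses given per line here are not adjusted for the median of all genes, which with TNFa was -0.19 (GFP) and 0.09 (YAP(5SA)). With TNFa, TGFBR2 gave -0.46 (GFP) and 0.32 (YAP(5SA)), and its second probe -0.36 and 0.58. Relative to the median these differences were 0.52 and 0.68, so both probes differed in the same direction. THBS1 gave 0.29 and -0.07 with TNFa. The differences of the 2 TGFB2 probes with TNFa, relative to the median, were -0.71 and -0.60. SMAD3 gave -0.43 and 0.42 with TNFa on its brightest probe, but 0.41 and 0.23, and 0.47 and 0.24, on the others. LTBP2 gave 0.16 and -0.47 with IL-1b on its brighter probe and 0.22 and 0.66 on the other, so the probes gave opposite differences.

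The other genes of the pathway moved between the lines in both directions, and so did those called among its inhibitors. Of 47 such genes analysed in 4 lists, 39 lay above the dim cutoff. The lists were chosen with earlier results of these data known, so their shares beside the background are descriptive only. Between the lines 7 of the 39 rose (background 7.90%) and 8 fell (background 8.91%) with the YAP(5SA) label, and the median difference was 0.03. Centring on the median turned this into 10 higher and 4 lower, as FKBP1A, VIM and HMGA2 joined the calls and NRROS, ITGAV, BAMBI and ANGPTL4 left them. Without the treatment term 4 rose and 3 fell, and with no dim cutoff 5 rose and 2 fell, each ending 8 of the 15 calls. Without either array of the IL-1b pair 4 rose and 1 fell.

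PMEPA1, a TGF-beta-induced membrane protein that keeps SMAD2 and SMAD3 from the receptor, had the largest difference of the 39. It read 13.45, 13.30 and 13.17 in GFP cells and 10.90, 10.77 and 10.49 in the YAP(5SA)-labelled line. The fall was -2.59 ± 0.20 (SE, adjusted p = 6.42e-13), or 6.02-fold, and the pair values ran from -2.68 to -2.53. SMURF2, a ubiquitin ligase that SMAD7 brings to the receptors, went the other way, from 9.63, 10.02 and 9.80 to 11.18, 11.45 and 11.49. It rose by 1.56 ± 0.20 (SE, adjusted p = 1.5e-07). Both calls held in all 6 fits that left out an array. The SMAD corepressor SKIL fell by 0.68 and SMAD6, an inhibitory SMAD that acts mainly on BMP signals, fell by 0.89. With these, 1 of 12 SMAD signalling and inhibitor genes rose (background 7.90%) and 3 fell (background 8.91%). The SKIL call was lost in 4 of these 6 fits. That of SMAD6 was lost without either array of the IL-1b pair and without the treatment term (adjusted p = 0.0676). The SMAD6 pair values were -0.14, -1.52 and -1.01 under vehicle, IL-1b and TNFa, so its lines differed little under vehicle. SMAD4, TGIF1 and FKBP1A, with differences of 0.24, -0.27 and 0.46, did not pass. Without the vehicle pair TGIF1 was at -0.019, and with the mean of probes SMAD4 was at 0.040.

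Among ligand and latency genes 1 of 8 rose (background 7.90%) and 2 fell (background 8.91%). FBN1, the fibrillin to which LTBP proteins attach, rose by 1.07 ± 0.21 (SE, adjusted p = 0.000133), from 11.75, 11.78 and 11.42 to 12.79, 12.59 and 12.79. The integrin subunit ITGAV, part of the receptors that pull latent TGF-beta open, fell by 0.58, and NRROS, which tethers latent TGF-beta on myeloid cells, fell by 0.62. The ITGAV and NRROS calls were each lost in 4 of the 6 fits with an array dropped, whereas that of FBN1 held in all 6. LTBP3 (-0.53), LRRC32 (-0.57) and ITGB6 (-0.58) did not pass. Without either TNFa array LRRC32 (-0.79, adjusted p = 0.00956) and ITGB6 (-0.98, adjusted p = 0.000646) did pass, and without either IL-1b array they were at -0.25 and -0.27. Of the 2 measured co-receptors, betaglycan TGFBR3 rose by 0.67 and the decoy receptor BAMBI fell by 0.65, and each call was lost in 4 of these 6 fits. The BAMBI pair values were -0.04, -0.94 and -0.96 under vehicle, IL-1b and TNFa, and its lines overlapped.

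Of 17 response genes 4 rose (background 7.90%) and 2 fell (background 8.91%). The basement membrane collagen COL4A1 rose by 1.16 ± 0.20 (SE, adjusted p = 2.93e-05) and the actin-binding TAGLN by 1.76 ± 0.21 (SE, adjusted p = 3.05e-08), and both calls held in all 6 fits. IGFBP3, which binds insulin-like growth factors, rose by 0.78 and CCN2, which is also a YAP target, by 0.68. TGFBI, a matrix protein named for its induction by TGF-beta, fell by 0.66 and ANGPTL4, an inhibitor of lipoprotein lipase, by 0.59. The calls of these 4 genes were each lost in 4 of the 6. With the mean of its probes IGFBP3 was at 0.46 and no longer called (adjusted p = 0.101). VIM (0.51), HMGA2 (0.51) and MMP2 (-0.44) did not pass. Without either TNFa array VIM (0.68, adjusted p = 0.0298) and MMP2 (-0.96, adjusted p = 0.000882) did, although MMP2 was at -0.13 without the vehicle pair. HMGA2 passed without the vehicle pair (0.70, adjusted p = 0.0369) but was at 0.14 with the mean of its probes.

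The cytokines changed few of these 39 genes. With IL-1b 2 rose and 0 fell (background 1.32% higher), and with TNFa 1 rose and 0 fell (background 0.688% higher). JUNB, an AP-1 subunit, rose with IL-1b by 1.71 ± 0.26 (SE, adjusted p = 4.12e-05) and with TNFa by 1.25 ± 0.26 (SE, adjusted p = 0.00576). GFP cells read 11.20, 13.35 and 12.72, and the YAP(5SA)-labelled line 11.84, 13.11 and 12.82. The TNFa call was lost without the GFP vehicle array (0.90, adjusted p = 0.705), with no dim cutoff (adjusted p = 0.137), with the mean of probes (adjusted p = 0.0541) and without the line term. The IL-1b call was lost without the GFP IL-1b array (1.40, adjusted p = 0.162) and without the line term (adjusted p = 0.435). BHLHE40, a transcriptional repressor, rose with IL-1b by 0.96 ± 0.25 (SE, adjusted p = 0.0341), a call lost in 4 of the 6 fits, with no dim cutoff, with the mean of probes and without the line term. Both are also early genes of other stimuli.

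**Figure D4:**
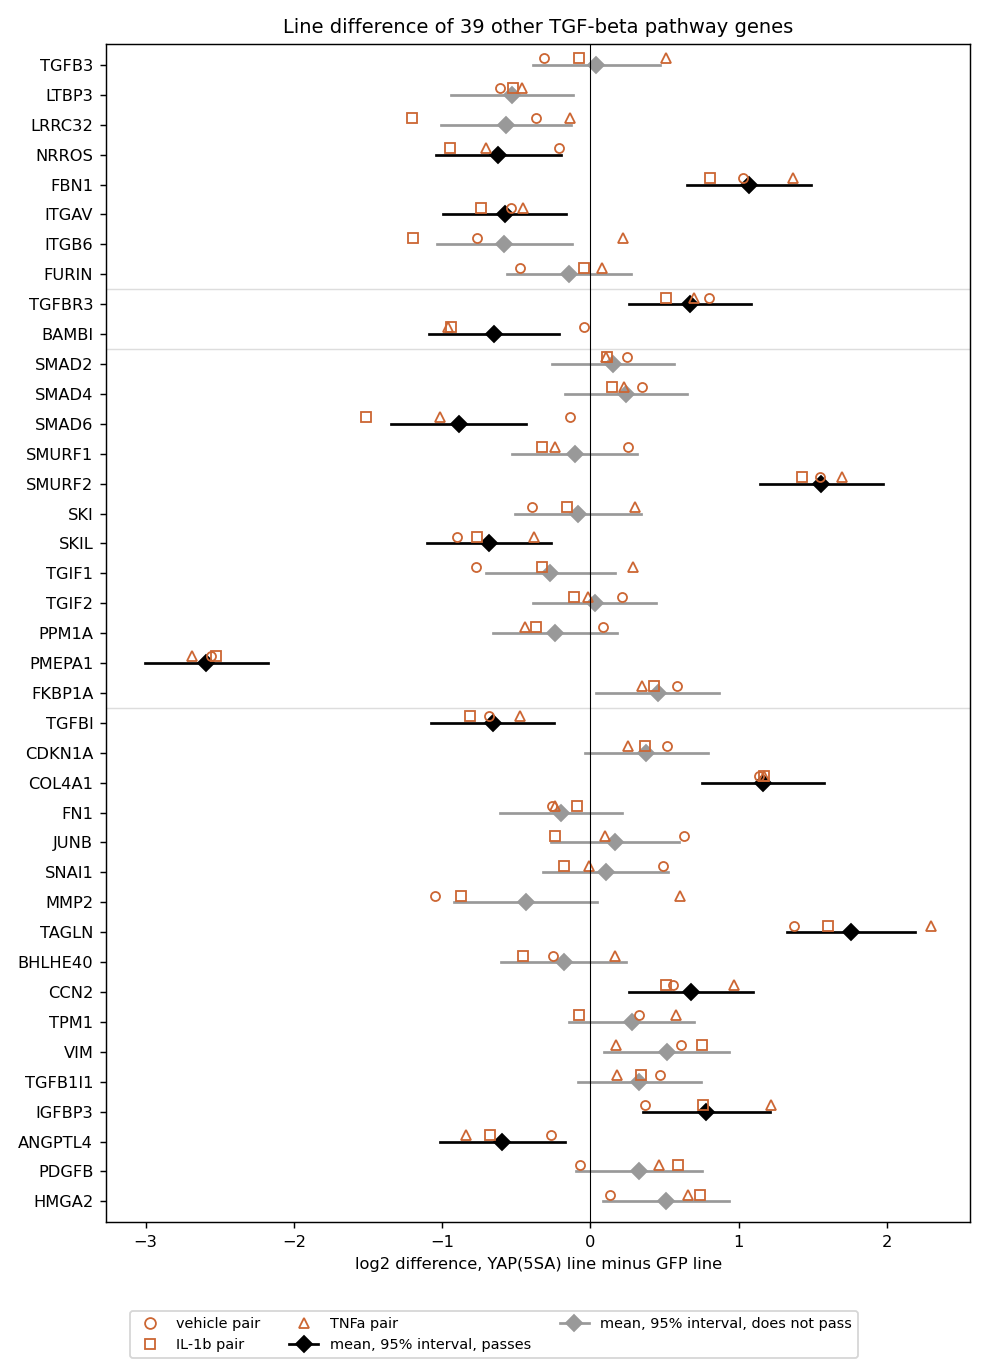
Difference between the lines on the log2 scale for 39 other pathway genes, from the top in the order ligands and latency, co-receptors, SMAD signalling and inhibitors, and response genes, divided by grey lines. Open symbols are single pairs, diamonds the mean, bars the 95% interval, and black marks genes that passed the test. PMEPA1 lies farthest to the left at -2.59, and TAGLN farthest to the right at 1.76.

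For the 4 genes whose level spanned at least 1 over the 6 arrays, the genes with the nearest profile were sought by the root-mean-square distance between centred log2 levels over these 6 arrays. Nearest to LTBP1 were the fibrillar collagen gene COL5A2 (0.050), the annexin ANXA4 (0.067) and DDIT4L (0.071). Nearest to TGFBR1 were the epithelial sodium channel subunit SCNN1A (0.056), CCDC88B (0.065) and the RNA sensor RIGI (0.066). Nearest to LTBP2 were KLHL13 (0.078), TBC1D12 (0.105) and the kinase RPS6KA5 (0.110). Nearest to SMAD7 were the GTPase RAC3 (0.046), SLC25A51 (0.053) and the lipid kinase PI4K2A (0.061). With 12350 genes and 6 arrays, such near profiles are a description of these arrays only.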

How the data were processed

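Gene expression was measured on 6 one-colour Cy5 arrays, 1 per condition. The authors deposited linear probe intensity values, some below 0 after background subtraction (10 to 1146 probes per array). For the scanner, background method and scaling the sources used here give nothing. Of 28264 probes, 25893 carried 1 gene in the platform annotation, 0 several, and 2371 none; all 25893 gene identifiers matched RefSeq (GRCh38.p14), which gave current symbols. Negative values were set to 0, 16 was added and log2 taken. After the dimmest 40% of named probes had been dropped, each gene was represented by its brightest probe on average, leaving 12350 genes, or 15536 probes where every probe was fitted. An additive model of line and treatment was fitted with limma 3.58.1 in R 4.3.3, with Benjamini-Hochberg adjustment over all genes at 0.05. It has 2 residual degrees of freedom plus 34.3 from the prior, and assumes one line difference for all 3 treatments. Promoter windows were searched in Python 3.11.15.

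The genes and lists were chosen with earlier results of these data known. Named were the 9 genes, YAP1, pathway genes past a test, up to 3 others per list with the largest line difference, and the 3 nearest profiles of genes spanning at least 1. Alternatives were 2 normalizations, other cutoffs and pseudocounts, the mean of probes, every probe, another variance model, no covariate, fewer arrays and each array left out.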

Additional observations from a re-analysis of the deposited data

How the results depend on the processing

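The calls of LTBP1 and LTBP2 between the lines held under all 16 alternatives each. The called genes among the 9 were 4 higher with quantile normalization and with median centring, 1 higher with no dim cutoff and without the treatment covariate, and 1 lower with the dimmest 60% left out, where TGFBR1 was no longer tested. With each array left out they were 1 to 2 higher and 1 to 3 lower. All genes called between the lines, 2077, became 1383 with the dimmest 60% left out and 1023 to 2300 with an array left out. The 292 IL-1b calls became 58 with no cutoff, 80 with the mean of probes, 455 with trend and robust estimation, 4 without the line covariate, 692 on 4 arrays, and 58 to 692 with an array left out. The 95 TNFa calls became 36, 45 and 3 with no cutoff, the mean of probes and no covariate, and 50 to 129 with an array left out. None of the 9 genes was called for a cytokine under any alternative. These values turned sign, none of them called. With quantile normalization SMAD3 gave -0.066 between the lines and 0.020 with TNFa, and TGFBR2 0.010 with TNFa. With median centring SMAD3 gave 0.0090 with TNFa. With the mean of probes SMAD3 gave -0.30 between the lines and 0.22 with TNFa, LTBP2 0.14 with IL-1b and 0.037 with TNFa, TGFBR1 0.14 and 0.071, and TGFBR2 0.021 with TNFa. With each array left out SMAD3 ran from -0.15 to 0.27 between the lines. With IL-1b LTBP1 ran from -0.051 to 0.18, LTBP2 from -0.53 to 0.23, TGFBR1 from -0.25 to 0.13 and TGFBR2 from -0.21 to 0.33. With TNFa the ranges were -0.077 to 0.45 for TGFB2, -0.24 to 0.14 for LTBP1, -0.37 to 0.20 for LTBP2, -0.029 to 0.25 for THBS1, -0.32 to 0.076 for TGFBR1, -0.38 to 0.25 for TGFBR2 and -0.36 to 0.35 for SMAD3. The cause was not tested, except that the mean of probes brings in probes that disagree. The 2 arrays of a pair gave identical line differences when either was dropped, so counts out of 6 fits between the lines rest on 3 pairs. The files give no detection calls, so signal over background is unknown. Arrays were paired by treatment alone, as the labels carry no replicate numbers.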

Other observations

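TGFB2-AS1, an RNA from the strand opposite TGFB2, had 1 probe. It read 8.54, 7.96 and 8.96 in GFP cells (vehicle, IL-1b, TNFa) and 8.67, 7.50 and 8.21 in the YAP(5SA)-labelled line. It was lower with IL-1b in both lines, by a mean of -0.87 ± 0.26 (limma SE), which did not pass the test on every probe (adjusted p = 0.0656). The gene was chosen after its values were seen.

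Of the pathway inhibitors, BAMBI gave IL-1b values of 0.87 (GFP) and -0.03 (YAP(5SA)) and TNFa values of 1.15 and 0.23. SMAD6 gave 0.24 and -1.14, then 0.42 and -0.46. Under vehicle the lines differed by -0.04 for BAMBI and -0.14 for SMAD6. Each value is a single pair of arrays, the responses of a line share its vehicle array, and the difference in response was not tested. These genes were singled out after their values were seen.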
